A study of Mus musculus with 3 samples.

Results

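The type 2 cytokines *Il4*, *Il5* and *Il13*, the receptor gene *Il1rl1*, the transcription factor gene *Gata3* and the epithelial alarmins *Il33* and *Tslp* were followed through single-cell RNA sequencing (scRNA-seq) of mouse skin. The 7 genes were chosen by name and not by a rule on their values, although earlier results of these data were known. They come from 32285 genes in the count tables. All 7 had at least 1 unique molecular identifier (UMI, a tag that marks 1 captured mRNA molecule) in each library. The dorsal skin came from female C3H/HeN mice aged 25 weeks, and the skin of 7 to 8 mice was pooled for each of 3 libraries. The Neg library held unaffected mice, labelled as a vehicle control. The AA library held mice of the alopecia areata (AA) model, made by intradermal transfer of cultured cells from the skin-draining lymph nodes of affected mice. The AA+Ab library held AA model mice given an antibody that neutralizes the chemokine CXCL12. Cells were kept with at most 10% of UMIs from mitochondrial genes and at least 200 genes, and 6582 Neg, 10433 AA and 9832 AA+Ab cells passed, with 119193310, 135609481 and 139663314 UMIs and medians of 13694.5, 11177 and 11371 UMIs per cell.

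With 1 library per group, no test between the groups was possible. Levels are given as CPM, the UMIs of a gene per 1000000 UMIs of the cells in question, and the 95% intervals cover counting error only, not the spread between mice. They treat each UMI as independent, so they also leave out the effect of which cells were sampled. Where few cells hold most UMIs of a gene, the intervals are too narrow. Fewer cells of a type and less RNA per cell cannot be told apart in sums over all cells. The libraries shared few barcodes (116 kept cells carried a barcode also kept in another library). The label of whole skin was checked against its markers. *Krt5* and *Krt14*, keratins of the basal epidermis, were at 2748, 3063 and 2780 CPM and at 5009, 6612 and 5499 CPM in Neg, AA and AA+Ab. *Cd8a*, a coreceptor of cytotoxic T cells, was at 0.21, 3.78 and 1.21 CPM.

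IL-33 and TSLP are released by epithelial and stromal cells under stress or damage. IL-33 binds ST2, the receptor encoded by *Il1rl1*, on group 2 innate lymphoid cells (ILC2), T helper 2 cells, regulatory T cells and mast cells, and such cells can answer with IL-5 and IL-13. GATA3 is the transcription factor that directs the type 2 fate of lymphocytes, and it also acts in skin epithelium and the hair follicle.

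*Il4* (chr11:53602982-53618669, minus strand), *Il13* (chr11:53631324-53634702, minus strand) and *Il5* (chr11:53720794-53725106, plus strand) lie within 122 kb of each other in GRCm38, with 12655 bases between *Il4* and *Il13* and 86092 bases between *Il13* and *Il5*. *Il1rl1* is on the plus strand at chr1:40429570-40465415, *Gata3* on the minus strand at chr2:9857078-9890034 and *Il33* on the plus strand at chr19:29925114-29960718. The 250 bases before the RefSeq starts of *Il13* and *Il5* and before the distal of the 2 starts of *Il4* and of *Il1rl1* are shown because GATA3 is a known regulator of these genes. All 4 genes also had UMIs in the same small cluster of cells, though mostly not in the same cells. That cluster held only 43.8% of *Il4* UMIs. Capitals mark matches to the motif that GATA factors bind, spelled AGATAA, with AGATAG as the second, TGATAA as the third and TGATAG as the fourth spelling searched, on both strands. The windows are from GRCm38.p6 and read 5′ to 3′ on the strand of the gene, at chr11:53618666-53618915 for *Il4*, chr11:53634703-53634952 for *Il13*, chr11:53720544-53720793 for *Il5* and chr1:40429320-40429569 for *Il1rl1*.
Il4: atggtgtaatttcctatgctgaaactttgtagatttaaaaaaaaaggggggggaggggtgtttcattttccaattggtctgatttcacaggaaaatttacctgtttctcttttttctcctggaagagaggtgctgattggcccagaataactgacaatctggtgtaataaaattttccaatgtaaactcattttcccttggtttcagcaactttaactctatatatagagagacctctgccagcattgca
Il13: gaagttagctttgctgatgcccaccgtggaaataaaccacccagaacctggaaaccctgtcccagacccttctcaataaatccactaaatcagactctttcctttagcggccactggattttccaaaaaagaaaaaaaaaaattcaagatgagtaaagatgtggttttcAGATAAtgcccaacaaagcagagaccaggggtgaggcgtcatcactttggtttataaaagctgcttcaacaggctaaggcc
Il5: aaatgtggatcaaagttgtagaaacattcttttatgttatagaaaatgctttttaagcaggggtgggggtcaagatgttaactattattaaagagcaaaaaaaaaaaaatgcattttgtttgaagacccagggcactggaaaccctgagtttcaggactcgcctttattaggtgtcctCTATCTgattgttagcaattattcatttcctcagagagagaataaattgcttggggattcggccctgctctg
Il1rl1: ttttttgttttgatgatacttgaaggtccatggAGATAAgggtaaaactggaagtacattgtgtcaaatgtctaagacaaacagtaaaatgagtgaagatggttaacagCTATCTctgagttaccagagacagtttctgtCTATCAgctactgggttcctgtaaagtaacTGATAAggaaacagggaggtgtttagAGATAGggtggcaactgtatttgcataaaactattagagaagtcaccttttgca

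The *Il13* window held 1 match, which starts 81 bases before the gene, and the *Il5* window held 1 match, 72 bases before it. In the *Il1rl1* window, 5 matches started 217, 141, 110, 80 and 54 bases before the start site. The *Il4* window shown held no match, which says only that these letters are absent from it, and the window of its other start (chr11:53617339-53617588) held 1, 80 bases before that start. The window of the other *Il1rl1* start held 1 match and those of *Gata3* and *Il33* held 0. Of 32851 windows of the same length, 26.5% held at least 1 match and 0.0426% held at least 5. A match describes the letters and is not a measured binding site.

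Over all cells, the cytokines were rare in every library. *Il13*, which encodes a cytokine of ILC2, T helper 2 cells and other lymphocytes that acts on epithelium and macrophages, had 82 UMIs in 38 Neg cells, 110 in 46 AA cells and 31 in 17 AA+Ab cells, at 0.688, 0.811 and 0.222 CPM. The Neg and AA levels differed by less than counting error (ratio of AA to Neg 1.18, 0.878 to 1.59), and the AA+Ab level was below that of AA (ratio 0.274, 0.178 to 0.411) and of Neg (0.323, 0.206 to 0.493). The ratio of AA+Ab to AA was lower still without doublets, at 0.172, and with each cell thinned to 1000 UMIs, at 0.115. *Il5*, which encodes the growth factor of eosinophils, had 25 UMIs in 12 Neg cells, 36 in 17 AA cells and 28 in 15 AA+Ab cells, and neither ratio left counting error (1.27, 0.739 to 2.20, for AA to Neg and 0.755, 0.444 to 1.27, for AA+Ab to AA). The 3 *Il5* levels therefore could not be separated at this depth. *Il4*, which encodes the cytokine that drives T helper 2 differentiation, had 13 UMIs in 10 Neg cells, 25 in 16 AA cells and 10 in 10 AA+Ab cells. Its ratio of AA+Ab to AA was 0.388 (0.167 to 0.837), and 8 of the 25 AA UMIs were in 1 cell. Without the cell with the most *Il4* UMIs in each library the ratio was 0.514.

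*Il1rl1* had 220, 215 and 264 UMIs in 55 Neg, 75 AA and 104 AA+Ab cells, at 1.85, 1.59 and 1.89 CPM, and both ratios stayed within counting error (0.859, 0.709 to 1.04, and 1.19, 0.992 to 1.43). *Gata3* was found in most cells, with 34330, 33194 and 30927 UMIs and levels of 288, 244.8 and 221.4 CPM. Its level was lower in AA than in Neg (ratio 0.850, 0.837 to 0.863) and lower in AA+Ab than in AA (0.905, 0.891 to 0.919). *Il33* had 7784, 12499 and 10221 UMIs, at 65.3, 92.2 and 73.2 CPM, and was highest in AA (ratio of AA to Neg 1.41, 1.37 to 1.45, and of AA+Ab to AA 0.794, 0.773 to 0.815). *Tslp* had 428, 526 and 392 UMIs, at 3.59, 3.88 and 2.81 CPM, with a ratio of AA to Neg within counting error (1.08, 0.949 to 1.23) and of AA+Ab to AA below it (0.724, 0.633 to 0.826).

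**Figure D1:**
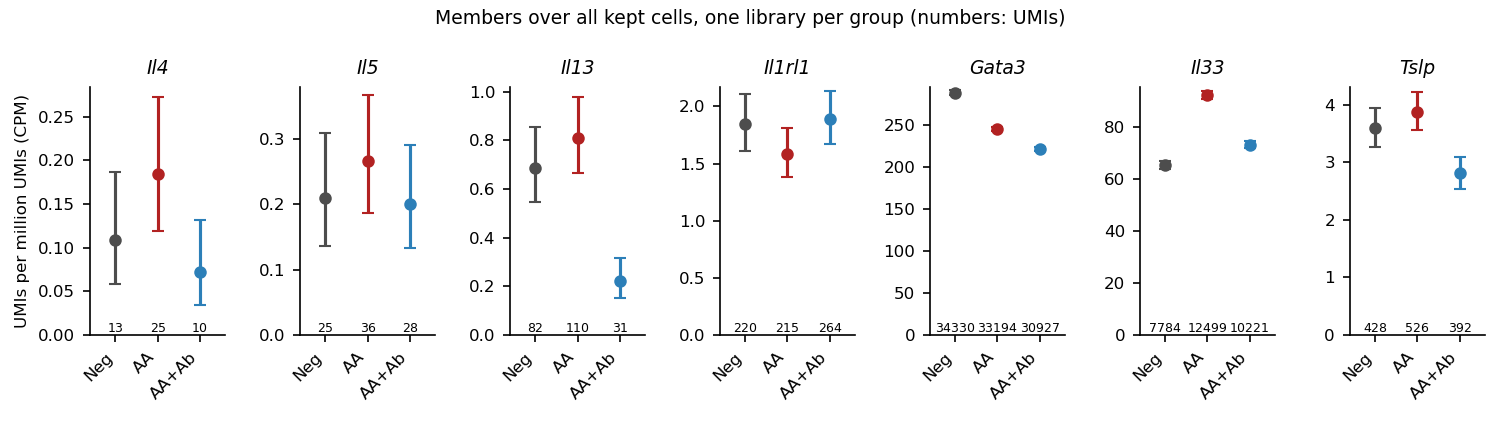
CPM of each of the 7 genes over all kept cells of the Neg, AA and AA+Ab libraries, with 1 library per group; points are levels, lines are 95% Poisson intervals for counting error only and the numbers are UMIs. *Il13* is at 0.222 CPM in AA+Ab against 0.688 and 0.811 in Neg and AA, and *Il33* is highest in AA.

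A difference of at least 2-fold between libraries was set beside the same count over the 20427 genes with at least 20 UMIs in the 3 libraries together. From Neg to AA, 0 of the 7 genes were past 2-fold, where 3.56% of all genes were higher and 4.44% lower, although *Il4* was at 3.32-fold as a mean of per-cell CPM and *Il5* at 2.13-fold after thinning. From AA to AA+Ab, 2 of the 7, *Il4* and *Il13*, were lower by at least 2-fold and 0 higher, where 4.68% of all genes were lower and 3.12% higher, and without the top cell of each library *Il4*, at 0.514, was not past 2-fold. From Neg to AA+Ab, 1 of the 7, *Il13*, was lower and 0 higher, where 4.42% of all genes were lower and 2.48% higher. These comparisons share libraries, so a high or low value of AA enters both of the first comparisons.

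The cells fell into 28 clusters, made without the 7 genes and the pathway genes, and 23695 of 26847 cells, in 17 clusters, carried keratinocyte markers and 94.5% of all UMIs. *Il5*, *Il13* and *Il1rl1* lay mostly outside them. A cluster of 753 cells with T cell markers (117 Neg, 393 AA and 243 AA+Ab cells, here the T cell-like cluster) held 91.0% of *Il5* UMIs, 67.7% of *Il13*, 80.1% of *Il1rl1* and 43.8% of *Il4*. It also held natural killer cell-like and ILC2-like groups and groups rich in keratinocyte genes, so it is compared as a cluster and not as a T cell class. A gamma-delta T cell-like cluster of 498 cells (168, 114 and 216) held a further 24.7% of *Il13*, and a dendritic cell and macrophage (DC/Mac)-like cluster of 285 cells held 10.2% of *Il1rl1*. The last also held B cell-like, monocyte-like and keratinocyte-gene groups and is likewise compared as a cluster. *Gata3*, *Il33* and *Tslp* lay in keratinocyte-like clusters, with 96.5%, 97.6% and 94.2% of their UMIs. *Il4* was the least tied to a cluster, with 24 of its 48 UMIs in keratinocyte-like cells.

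At least 1 UMI of *Il4*, *Il5* or *Il13* was found in 56 Neg cells, 77 AA cells and 39 AA+Ab cells, which is 0.851% (exact Clopper-Pearson interval 0.643 to 1.10), 0.738% (0.583 to 0.922) and 0.397% (0.282 to 0.542) of the cells. With at least 2 UMIs required, 11, 22 and 13 cells remained, or 0.167%, 0.211% and 0.132%. Of the 172 cells, 80 were in the T cell-like cluster (17, 41 and 22), 43 in the gamma-delta T cell-like cluster (20, 12 and 11) and 45 in keratinocyte-like clusters (19, 21 and 5). Of the 172 cells, 28 were scored as doublets. Only 8 cells had UMIs of more than 1 of the 3 genes, and *Il5* and *Il13* were found together in 3. The UMIs were concentrated in few cells, since the 3 cells with the most *Il13* held 48.8% of its UMIs in Neg, 45.5% in AA and 41.9% in AA+Ab, and the top cell had 28, 26 and 5.

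Within the T cell-like cluster, *Il13* had 52 UMIs in 10 Neg cells, 86 in 27 AA cells and 13 in 4 AA+Ab cells, or 58.8, 43.9 and 9.54 CPM. The share of its cells with an *Il13* UMI was 8.55%, 6.87% and 1.65%, and 3.45%, 3.69% and 0.855% after each cell was thinned to 1000 UMIs, which left out 1, 14 and 9 shallower cells. In keratinocyte-like cells, which should lack *Il13* and were deeper (medians of 14658, 11707 and 12086.5 UMIs against 5483, 3850 and 4131), the share was 0.141%, 0.0642% and 0.0231%. The AA+Ab level was below that of AA (ratio 0.217, 0.111 to 0.392) and of Neg (0.162, 0.0810 to 0.302), while the ratio of AA to Neg was within counting error (0.746, 0.523 to 1.07). This last ratio rested on single cells: without the top cell of each library it was 1.12, and without the sub-clusters with keratinocyte genes it was 0.547 (0.378 to 0.798), below counting error. Those sub-clusters held 7 of the 13 AA+Ab UMIs, and without them the AA+Ab ratios were 0.143 (0.0507 to 0.326) to AA and 0.0781 (0.0274 to 0.182) to Neg. With cells classed by the UMIs of T cell markers in place of clusters, a class that was mostly keratinocyte-cluster cells, the ratio of AA to Neg was 2.38.

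*Il5* in the same cluster had 22 UMIs in 9 Neg cells, 31 in 12 AA cells and 28 in 15 AA+Ab cells, or 24.9, 15.8 and 20.5 CPM. Its share of cells was 7.69%, 3.05% and 6.17%, and 1.72%, 0.792% and 2.14% after thinning, against 0.0528% and 0.0535% of Neg and AA keratinocyte-like cells and 0 of 8664 in AA+Ab. Neither ratio left counting error (0.635, 0.356 to 1.15, and 1.30, 0.751 to 2.24), and both turned with cells classed by marker UMIs, to 2.66 and 0.568. *Il4* had 3, 12 and 6 UMIs there, and 8 of the 12 in AA came from 1 natural killer cell-like cell.

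*Il1rl1* differed in this cluster, while its ratios of summed UMIs over all cells stayed within counting error (0.619 and 1.68 as means of per-cell CPM). It had 180 UMIs in 28 Neg cells, 168 in 47 AA cells and 212 in 67 AA+Ab cells, or 203.6, 85.7 and 155.5 CPM. The AA level was below that of Neg (ratio 0.421, 0.339 to 0.522) and the AA+Ab level above that of AA (1.82, 1.48 to 2.24). The share of cells with a UMI was also lowest in AA, with 23.9%, 11.96% and 27.6%, and with 14.7%, 5.54% and 11.5% after thinning, of which only the thinned shares put Neg above AA+Ab as the levels do. It compares with 0.281%, 0.0963% and 0.231% of keratinocyte-like cells. *Gata3* was at 386.8, 276.4 and 327.2 CPM in the cluster (ratios 0.715, 0.623 to 0.821, and 1.18, 1.04 to 1.34). With cells classed by marker UMIs the ratios of *Il1rl1* turned to 1.92 and 0.710 and the second ratio of *Gata3* to 0.949. The mix of cells in the cluster differed between the libraries, and its part in these ratios was not tested.

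Sub-clusters of the T cell-like cluster, also made without the 7 genes, separated most cells with *Il5* from most cells with *Il13*. The 88-cell and the ILC2-like sub-cluster described next held 9 of the 9 Neg, 10 of the 12 AA and 12 of the 15 AA+Ab cells with *Il5*, and 3 of 10, 0 of 27 and 1 of 4 cells with *Il13*. A sub-cluster of 88 cells with CD3 and T cell receptor genes was led by *Il5*, *Tmem273*, *Ltb4r1*, *Pparg*, *Ccr3*, *Il1rl1* and *Ccr4*, genes among which CCR4 is a chemokine receptor of skin-homing T cells. It held 5 Neg, 30 AA and 53 AA+Ab cells, or 0.0760%, 0.288% and 0.539% of the libraries. *Il5* in it had 12, 25 and 24 UMIs in 2, 8 and 12 cells. *Il1rl1* had 29, 95 and 137 UMIs in 5, 20 and 42 cells, and its level there was similar in the 3 libraries, at 689, 683 and 607 CPM. *Areg*, which encodes the epidermal growth factor receptor ligand amphiregulin, had 0, 41 and 105 UMIs in it, and *Cd4* had 6, 19 and 37. *Il13* was found in 3 of the 5 Neg cells, with 34 UMIs of which 28 were in 1 cell, and in 0 of the 30 AA and 0 of the 53 AA+Ab cells.

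The ILC2-like sub-cluster held 20 Neg, 11 AA and 14 AA+Ab cells, or 0.304%, 0.105% and 0.142% of the libraries. It was named from 4 of the 8 ILC2 markers (*Klrg1*, *Rora* and *Il7r* among them), had 2 UMIs of *Cd3e*, and *Ptgdr2* and *Il17rb*, also ILC2 markers, were at 0. In the whole T cell-like cluster only 6 of 117 Neg cells lacked a UMI of a T cell gene, so most of these 20 Neg cells had one. Of the 9 Neg cells with *Il5* in the cluster, 8 had one. The name thus describes markers and does not show that the cells are innate. *Il1rl1* had 137, 19 and 39 UMIs in 17, 8 and 11 of the sub-cluster's cells, or 1087, 414.6 and 660.6 CPM. *Il5* had 10 UMIs in 7 Neg cells, 2 in 2 AA cells and 0 in the 14 AA+Ab cells, and *Il13* had 0, 0 and 1. *Areg* had 171, 158 and 51 UMIs. Thus most *Il1rl1* UMIs of the Neg cluster were in the ILC2-like sub-cluster (137 of 180), and most of those in AA+Ab were in the *Cd4*- and *Il1rl1*-bearing T cell sub-cluster (137 of 212). Of the 180 Neg UMIs, 166 were in cells with a UMI of a T cell gene and 14 in cells without one. *Il1rl1* was also found in a sub-cluster led by *Itgb8*, *Foxp3* and *Ctla4*, genes of regulatory T cells, with 4, 20 and 11 UMIs in its 6, 17 and 14 cells.

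*Il13* in AA lay in other sub-clusters. Of its 86 UMIs, 40 were in 15 of the 145 AA cells of a sub-cluster led by *Sema6d*, *Pag1* and *Itga1* with *Cd8a* among its leading genes, which held 2 Neg and 23 AA+Ab cells. *Ifng*, the type 1 cytokine interferon gamma, had 485 UMIs in the same sub-cluster over the 3 libraries. A single AA cell held 26 UMIs, in a sub-cluster led by *Cd163l1*, *Blk* and *Il23r*, the last of which is a receptor gene of lymphocytes that make IL-17, and that sub-cluster had 15 *Il13* UMIs in 4 Neg cells. A further 12 UMIs lay in 4 cells of a sub-cluster with keratinocyte genes, in which 88.3% of cells were scored as doublets.

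**Figure D2:**
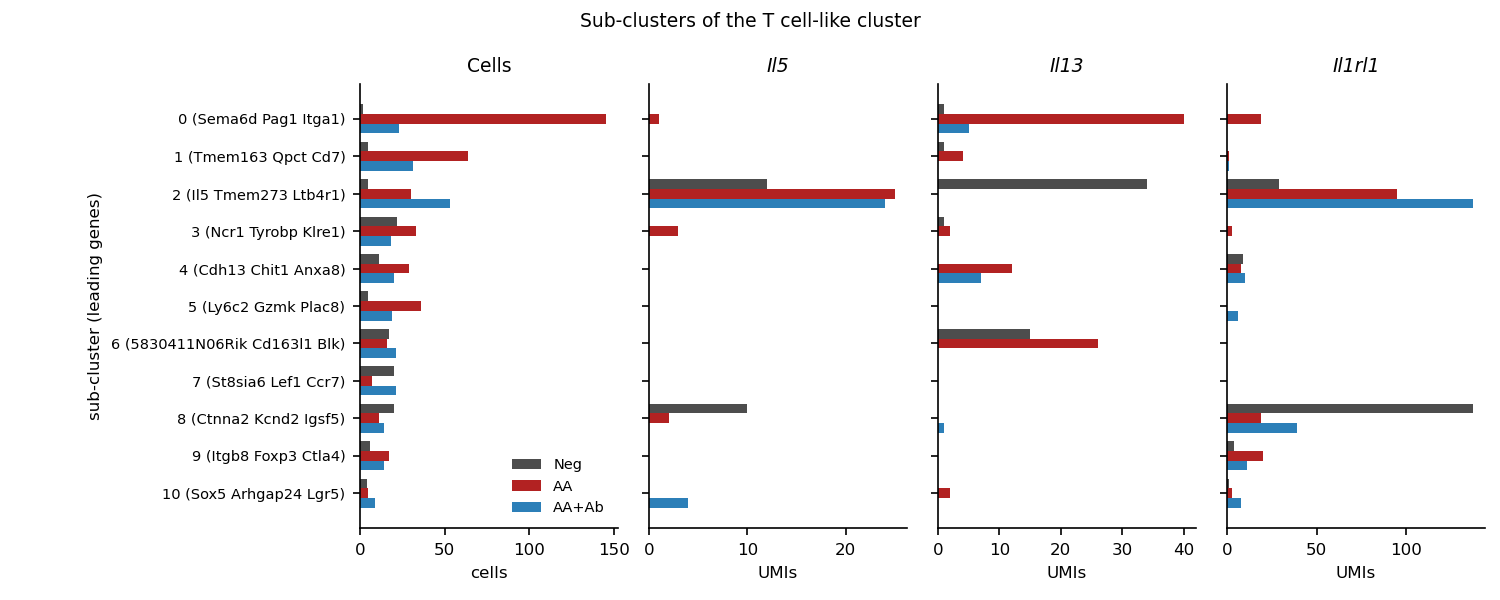
Number of cells and UMIs of *Il5*, *Il13* and *Il1rl1* in each sub-cluster of the T cell-like cluster (rows, with 3 of its leading genes), as bars for the Neg, AA and AA+Ab libraries. *Il5* and *Il1rl1* fall mainly into the 88-cell sub-cluster and the ILC2-like one, while *Il13* of AA has 40 of its 86 UMIs in the *Cd8a*-bearing sub-cluster with 145 AA cells and 26, from 1 cell, in the one led by *Cd163l1*.

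The same cells were also described by their own UMIs, which is not separate support for the division. *Cd8a* was not among the genes left out of the sub-clustering. All 36 cells of the T cell-like cluster with *Il5* also had *Gata3* UMIs, 29 had *Il1rl1*, 15 had *Areg*, 14 had *Cd4* and 3 had *Cd8a*. Among its 41 cells with *Il13*, 26 had *Gata3*, 10 had *Il1rl1*, 4 had *Cd4*, 20 had *Cd8a* and 17 had *Ifng*. The *Cd8a*-positive ones were mostly in AA, with 18 of 27 cells against 0 of 10 in Neg and 2 of 4 in AA+Ab. *Gata3* was found in 14 of these 27 AA cells, 8 of the 10 Neg cells and 4 of the 4 AA+Ab cells. Over the whole cluster, *Gata3* was found in 349 of 714 cells with a UMI of a T cell gene and in 18 of the 39 cells without one. *Il1rl1* was found in 138 and 4 of these cells. Cells with more UMIs are more likely to show any gene, and the median cell had 5438.5 UMIs among those with *Il5* and 6670 among those with *Il13*. The 12 cells with *Il4* included 11 with *Gata3* and 7 with *Il1rl1*.

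In gamma-delta T cell-like cells *Il13* was the only one of the 3 cytokines with UMIs. *Il13* had 22 UMIs in 20 of 168 Neg cells, 17 in 12 of 114 AA cells and 16 in 11 of 216 AA+Ab cells, or 11.9%, 10.5% and 5.09% of the cells and 3.61%, 4.50% and 0.483% after thinning, for which 2, 3 and 9 cells were too shallow. Its levels of 15.8, 26.7 and 12.8 CPM stayed within counting error (ratios 1.69, 0.840 to 3.32, and 0.480, 0.227 to 1.01). Sub-clusters with keratinocyte genes, in which 94.3% and 66.7% of cells were scored as doublets, made up 77 of the 498 cells and held 2, 3 and 7 of these UMIs. Without them the AA+Ab level was below that of AA (20, 14 and 9 UMIs, ratio 0.331, 0.127 to 0.822), and the ratio of AA to Neg was 1.17 (0.546 to 2.43). *Il4* and *Il5* had UMIs in 0 of 498 cells, which allows a share of cells with a UMI of up to 0.602% (3 counts of the total) and does not limit the share that transcribes them at a lower level. All 43 cells with *Il13* had UMIs of *Trdc*, the constant region of the T cell receptor delta chain. *Il1rl1* was found in 0 of the 43 and in 2 of all 498 cells, and *Gata3* in 14 of the 43 and 156 of the 498.

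In DC/Mac-like cells *Il1rl1* had 19 UMIs in 9 of 54 Neg cells, 30 in 17 of 119 AA cells and 22 in 13 of 112 AA+Ab cells, or 52.3, 39.8 and 31.6 CPM. The ratios stayed within counting error (0.761, 0.415 to 1.43, and 0.792, 0.435 to 1.42). Without its keratinocyte-gene and B cell-like sub-clusters the levels were 71.5, 55.4 and 82.3 CPM and the second ratio turned to 1.49 (0.810 to 2.69). A sub-cluster of 57 cells led by *Adam23*, *Rnf150* and *Cd209c* held 44 of the 71 UMIs.

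Mast cells, basophils and eosinophils, which can also bear ST2 or make IL-4 and IL-13, formed no cluster of their own. *Mcpt4*, a protease of connective tissue mast cells, had 413, 77 and 282 UMIs spread over 702 cells, and the 9 mast cell markers together, with *Kit* the most abundant, were at 30.0, 17.5 and 31.2 CPM. The 6 basophil markers were at 2.59, 1.14 and 5.71 CPM, mostly from *Hdc*, the histidine decarboxylase that mast cells also use, with 278, 128 and 742 UMIs, while *Mcpt8*, the basophil protease, had 0, 0 and 8 and *Prss34* was at 0. The 6 eosinophil markers were at 0.537, 1.56 and 1.48 CPM, with *Ear2* at 40, 145 and 60 UMIs, *Ccr3* at 12, 44 and 40, *Prg2* at 1, 8 and 35 and *Epx*, the eosinophil peroxidase, at 1, 2 and 0. *Ccr3* was also a leading gene of the 88-cell T cell sub-cluster. Their part in the cytokine and *Il1rl1* counts was not tested.

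*Il33* was found in 2428 of 5687 Neg, 3709 of 9344 AA and 3129 of 8664 AA+Ab keratinocyte-like cells, at 66.8, 95.6 and 75.6 CPM (ratio of AA to Neg 1.43, 1.39 to 1.47, and of AA+Ab to AA 0.791, 0.770 to 0.812). The shares of cells, 42.7%, 39.7% and 36.1%, did not follow the levels, but after thinning (12, 20 and 29 cells were too shallow for it) they were 6.40%, 7.95% and 6.79%, in the order of the levels. Across the 17 keratinocyte-like clusters the ratio of AA to Neg was above counting error in 7, below it in 2 and within it in 8, and the ratio of AA+Ab to AA was above it in 4, below it in 6 and within it in 7.

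The 2 clusters with the highest AA levels of *Il33* were a basal and a suprabasal epidermis-like cluster. Cluster 5, with *Itgb6*, *Nrg1*, *Krt16* and *Ptgs2* among its leading genes, held 439 Neg, 1446 AA and 387 AA+Ab cells, and its *Il33* level was 189.1, 208.2 and 313 CPM. Its ratio of AA+Ab to AA was therefore above 1 (ratio interval 1.41 to 1.60), opposite to that of all keratinocyte-like cells. Cluster 3, which is suprabasal, was at 106.1, 201.8 and 123.8 CPM, with the AA level above both others (ratio of AA to Neg 1.90, 1.79 to 2.03, and of AA+Ab to AA 0.614, 0.579 to 0.650). When the keratinocyte-like clusters were weighted to their shares in Neg, the ratio of AA to Neg was 1.14 and that of AA+Ab to AA 1.05. Weighted to their shares in AA the ratios were 1.16 and 1.11, and to those in AA+Ab 1.13 and 1.02, so that the ratio of AA+Ab to AA was above 1 under each of the 3 weightings, for which no interval was computed, while it was below counting error in 6 single clusters.

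*Gata3* was lower in AA than in Neg in 10 of the 17 keratinocyte-like clusters, above in 2 and within counting error in 5. Its highest cluster, 20, led by *Krt24* and *Tnc*, was at 647.3, 475.1 and 610.9 CPM, and cluster 3 at 535.2, 412.6 and 410.8 CPM. The ratio weighted to Neg cluster shares was 0.829 for AA to Neg and 0.940 for AA+Ab to AA.

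*Tslp* was found in 5.91%, 4.53% and 3.84% of keratinocyte-like cells, and in 0.441%, 0.504% and 0.394% after thinning. Of the 10 keratinocyte-like clusters in which a ratio of AA to Neg could be given, 9 were within counting error, and cluster 7 was below it at 0.383. Of 12 clusters with a ratio of AA+Ab to AA, 11 were within counting error and 1 below. In fibroblast-like cells *Tslp* had 10, 15 and 6 UMIs in 9 of 48, 14 of 114 and 6 of 31 cells, at 16.8, 17.2 and 20.7 CPM, with ratios of 1.02 (0.429 to 2.54) and 1.21 (0.383 to 3.29).

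**Figure D3:**
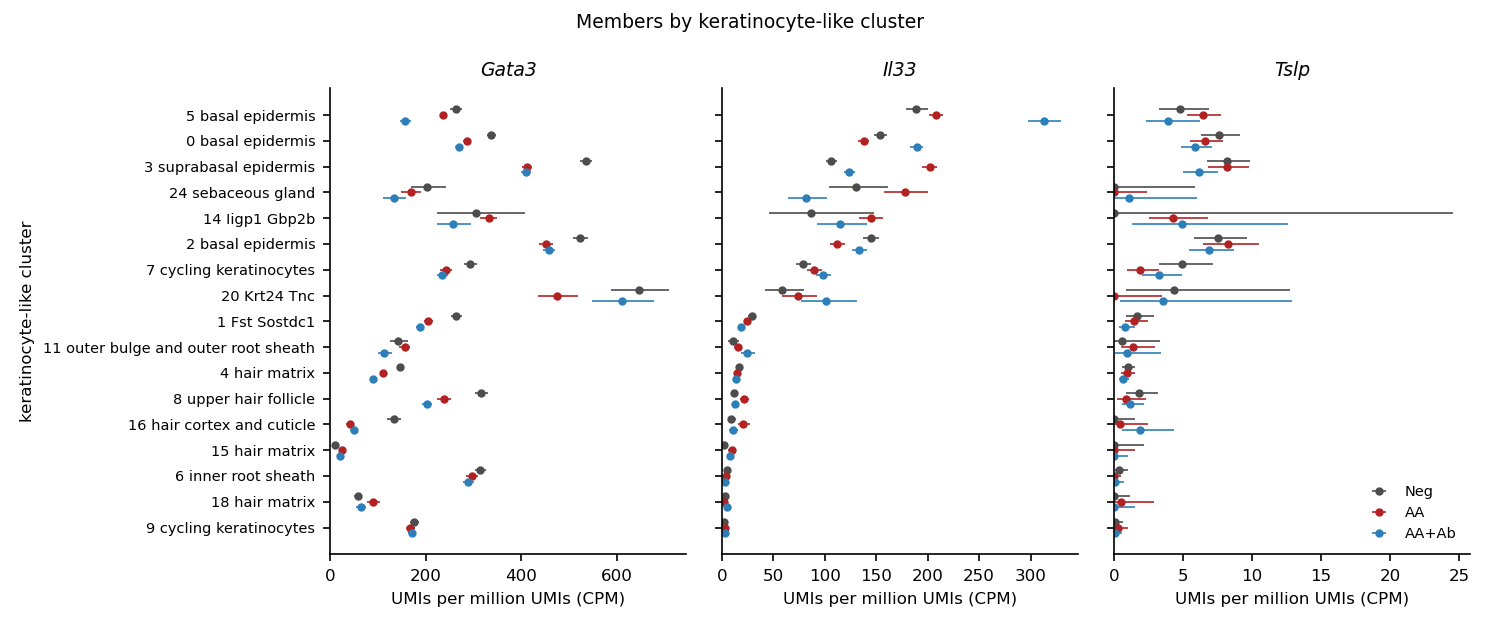
CPM of *Gata3*, *Il33* and *Tslp* in each keratinocyte-like cluster for the Neg, AA and AA+Ab libraries, with lines for 95% Poisson intervals (counting error only). *Il33* of cluster 5 is highest in AA+Ab, at 313 CPM, and that of cluster 3 is highest in AA, at 201.8 CPM.

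The genes around the 7 were described by lists fixed by name. Among other type 2 cytokines, 2 of 5 had at least 20 UMIs and neither was past 2-fold over all cells in AA over Neg or AA+Ab over AA. *Csf2*, a growth factor of myeloid cells, had 157, 188 and 249 UMIs, and *Areg* had 1191, 1863 and 1901, with 69.4% of the latter in keratinocyte-like cells. The T cell-like cluster held 79.8% of *Csf2* UMIs, at 99.5, 74.5 and 176.1 CPM (ratios 0.748, 0.570 to 0.986, and 2.365, 1.917 to 2.925). Of its 240 AA+Ab UMIs there, 56 were in 1 cell. *Areg* was there at 261.3, 210.6 and 139.4 CPM (0.806, 0.685 to 0.951, and 0.662, 0.554 to 0.788). In the gamma-delta T cell-like cluster *Areg* was at 58.3, 128.8 and 133.8 CPM (2.208, 1.604 to 3.04, and 1.039, 0.793 to 1.371). *Il9* had 15 UMIs, *Il31* 1 and *Il3* 0. Among other epithelial cytokines, *Il18* and *Il1a* were not past 2-fold, and *Il25*, which like IL-33 and TSLP acts on ILC2, had 6, 3 and 0 UMIs.

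Of the 15 receptor genes, 2 were at least 2-fold higher in AA than in Neg and 0 lower, with a median log2 ratio of 0.35 over the list and -0.06 over all genes, of which 3.56% were higher and 4.44% lower. *Il13ra2*, the IL-13 decoy receptor, had 24, 80 and 67 UMIs (ratio 2.93, 1.84 to 4.84), 98.2% of them in keratinocyte-like cells. *Il9r*, the receptor of IL-9, had 18, 63 and 61 UMIs (3.08, 1.80 to 5.52), 81.0% in the T cell-like cluster, where it was not past 2-fold, at 14.7, 28.6 and 33.8 CPM (1.94, 1.05 to 3.87). From AA to AA+Ab 1 was higher and 1 lower, against 3.12% and 4.68% of all genes. *Il31ra*, a chain of the receptor of the itch cytokine IL-31, had 1644, 3087 and 1308 UMIs (ratio of AA+Ab to AA 0.411, 0.385 to 0.439), 95.0% in keratinocyte-like cells. It was a leading gene of keratinocyte-like cluster 11, which held 113, 345 and 173 cells, and the part of that cluster was not tested. *Il5ra*, the receptor of IL-5, had 6, 13 and 65 UMIs (4.86, 2.65 to 9.60), of which 58 of the 65 lay in 11 cells of the B cell-like sub-clusters of the DC/Mac-like cluster, and none in its other sub-clusters. These sub-clusters had 10, 8 and 26 cells, and the 7 B cell markers were at 21.6, 61.8 and 133.7 CPM over all cells. *Il4ra* and *Il13ra1*, the signalling receptor chains of IL-4 and IL-13, had ratios of AA to Neg of 1.21 and 1.42 and were not past 2-fold. *Crlf2*, the TSLP receptor chain, had the lowest ratio of AA to Neg of the list, with 506, 538 and 551 UMIs (0.934, 0.826 to 1.06).

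Of 20 genes of type 2 lymphocyte identity with at least 20 UMIs, 3 were higher in AA than in Neg and 1 lower. In AA+Ab, 1 (*Gfi1*) was higher and 1 (*Icos*) lower than in AA. *Gfi1* had 12, 10 and 22 UMIs and a ratio of AA+Ab to AA within counting error (2.14, 0.971 to 5.05). The list's median log2 ratios were 0.20 and -0.32, and the shares of all genes past 2-fold were 3.56% higher and 4.44% lower, then 3.12% and 4.68%. *Icos*, a costimulatory receptor, had 346, 1178 and 514 UMIs (ratios 2.99, 2.65 to 3.38, and 0.424, 0.381 to 0.470), and *Ccr8*, a chemokine receptor, had 39, 137 and 77 (3.09, 2.15 to 4.53). These receptors are not restricted to type 2 cells, and the T cell-like cluster itself held 117, 393 and 243 cells. Within it neither was past 2-fold, with *Icos* at 340.4, 569.7 and 330.9 CPM (ratios 1.67, 1.47 to 1.91, and 0.581, 0.520 to 0.649) and *Ccr8* at 37.3, 66.3 and 52.1 CPM (1.78, 1.21 to 2.69, and 0.786, 0.580 to 1.06). *Calca*, which encodes the neuropeptide CGRP and is also transcribed by ILC2, had 562, 42 and 37 UMIs (ratio 0.0657, 0.0468 to 0.0900), of which 7.18% were in the T cell-like cluster.

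Of the 14 genes that IL-4 and IL-13 are known to induce, 7 were at least 2-fold higher in AA than in Neg and 1 lower, with a median log2 ratio of 0.99, where 3.56% and 4.44% of all genes were and their median was -0.06. From AA to AA+Ab 1 was higher and 5 lower, with a median of -0.44, where 3.12% and 4.68% of all genes were and their median was 0.00. *Ccl22*, which had 0 UMIs in Neg and 6 in AA, was taken at the limit that a count of 0 allows (3 counts). This gives a lower bound only, so *Ccl22* was not counted as past 2-fold from Neg to AA and whether it was cannot be told. It was the 1 gene higher in AA+Ab than in AA, with 24 UMIs (ratio 3.88, 1.55 to 11.6), of which 20 were in 1 cell. *Retnla*, a secreted protein of alternatively activated macrophages, had 170, 2218 and 486 UMIs (ratio of AA to Neg 11.5, 9.81 to 13.5, and of AA+Ab to AA 0.213, 0.193 to 0.235). *Mrc1*, which encodes the mannose receptor, had 92, 364 and 100 (3.48, 2.76 to 4.42, and 0.267, 0.212 to 0.334). *Ccl24*, an eotaxin that draws eosinophils, had 1, 64 and 20 (56.3, 9.74 to 2256, for AA to Neg), and *Clec10a*, a lectin, had 66, 164 and 50. *Chil3*, a chitinase-like protein of macrophages, was the 1 gene lower in AA than in Neg, with 9, 5 and 7 UMIs and a ratio within counting error (0.488, 0.129 to 1.62).

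*Retnla*, *Ccl24* and *Mrc1* lay in DC/Mac-like cells, with 94.3%, 95.3% and 89.6% of their UMIs, so their levels over all cells also follow the number of those cells (54, 119 and 112). Within the DC/Mac-like cluster *Retnla* was at 407.4, 2781 and 669.7 CPM in 4, 38 and 11 cells (ratios 6.83, 5.78 to 8.12, and 0.241, 0.217 to 0.266), and *Mrc1* at 195.4, 458 and 117.6 CPM (2.34, 1.81 to 3.07, and 0.257, 0.199 to 0.328). *Clec10a* was at 154.1, 188.5 and 63.1 CPM, within counting error from Neg to AA (1.22, 0.892 to 1.70) and lower in AA+Ab than in AA (0.335, 0.233 to 0.472). *Ccl11*, the other eotaxin, lay in fibroblast-like cells with 95.5% of its UMIs, at 313.1, 459.7 and 338.5 CPM there (ratios 1.47, 1.23 to 1.76, and 0.736, 0.584 to 0.920). *Postn*, which encodes the matrix protein periostin, lay in keratinocyte-like cells at 77.4, 118.6 and 92.9 CPM (1.53, 1.49 to 1.57, and 0.784, 0.765 to 0.803). It is also a naming marker of keratinocyte-like cluster 11, which held 113, 345 and 173 cells. The part of that cluster in the *Postn* ratios was not tested. Several of these genes also answer to other cytokines, and *Mrc1* is among the markers used to name the DC/Mac-like cluster. The make-up of the DC/Mac-like cluster differed between the libraries, with 10, 8 and 26 cells in B cell-like sub-clusters, 15, 31 and 28 in a monocyte-like one, 6, 10 and 11 in a keratinocyte-gene one with 51.9% doublets, 5, 21 and 8 in one led by *Retnla*, and 1, 12 and 4 in the only one named DC/Mac-like. Without the B cell-like and keratinocyte-gene sub-clusters the ratios of *Retnla* were 4.51 (3.82 to 5.37) and 0.459 (0.414 to 0.509), those of *Mrc1* 2.49 (1.84 to 3.43) and 0.424 (0.326 to 0.545), and those of *Clec10a* 1.36 (0.942 to 2.01) and 0.513 (0.349 to 0.739). *Ccl24* had 0, 43 and 20 UMIs there in 0, 10 and 2 cells, and its ratio of AA+Ab to AA was 0.879 (0.490 to 1.53), against 0.360 (0.206 to 0.606) in the whole cluster. A single cell held 16 of the 20 AA+Ab UMIs, and without the top cell of each library the ratio was 0.256 (0.0656 to 0.724). The part of the remaining sub-clusters in these ratios was not tested.

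**Figure D4:**
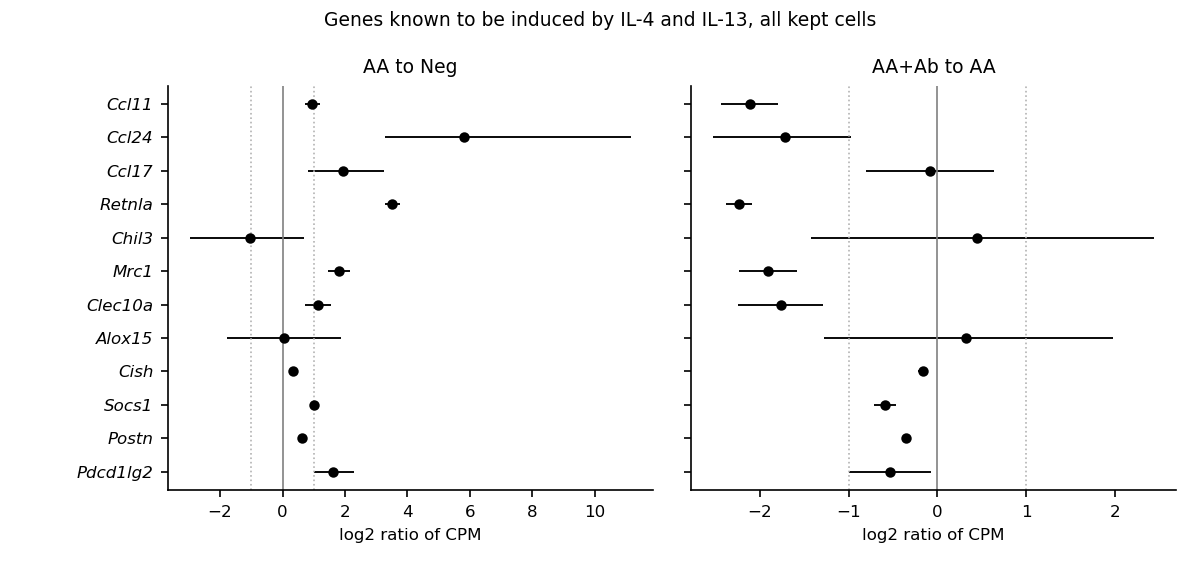
Log2 ratios of CPM over all kept cells for 12 of the 14 genes known to be induced by IL-4 and IL-13, AA to Neg on the left and AA+Ab to AA on the right; points are ratios, lines are 95% exact intervals for counting error only, dotted lines mark 2-fold, and 2 genes are left out, *Ccl22* because it was at 0 in Neg. *Retnla*, *Ccl24*, *Mrc1* and *Clec10a* lie right of 2-fold in the first comparison and left of it in the second, where 16 of the 20 AA+Ab UMIs of *Ccl24* were in 1 cell.

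Type 1 and type 17 cytokines were described over the same libraries. *Ifng* had 60, 754 and 271 UMIs (ratios 11.1, 8.48 to 14.6, and 0.349, 0.303 to 0.402), with 93.8% in the T cell-like cluster, where its levels were 63.3, 360.6 and 187.1 CPM. *Il17a* had 24, 93 and 58 UMIs (3.41, 2.16 to 5.58, for AA to Neg) and *Il17f* had 37, 9 and 11 (0.214, 0.0907 to 0.451). Over the 6 genes of this list with at least 20 UMIs, 2 were higher and 1 lower in AA than in Neg (3.56% and 4.44% of all genes), and from AA to AA+Ab 0 were higher and 1 was lower (3.12% and 4.68%). In AA, *Ifng* was thus past 2-fold above Neg where *Il4*, *Il5* and *Il13* were not, although the difference between these ratios was not tested.

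Genes whose levels followed those of a member most closely over the 28 clusters were ranked by Pearson correlation of log2(CPM + 1) among 16715 genes, as a description of clusters that share libraries and depth. The nearest to *Il13* were *Xcl1* (0.992), *Lta* (0.990) and *Klrc2* (0.986), genes of activated or cytotoxic lymphocytes. *Trgv2*, a T cell receptor gamma chain gene, followed at 0.978 and *Klrc1* at 0.974. The T cell-like and gamma-delta T cell-like clusters held 67.7% and 24.7% of *Il13* UMIs, so these correlations mainly mark genes high in those clusters. Those nearest to *Il1rl1* were *Ccr2* (0.978) and *Slamf6* (0.960), and to *Il33* *Slc17a8* (0.918) and *Gnai1* (0.883). *Gata3* and *Tslp* had no gene above 0.828 and 0.836.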

How the data were processed

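The authors deposited raw UMI counts per gene and barcode for each library. Per the submitters' processing notes, FastQC 0.11.7, Cell Ranger 7.2.0 and mm10 were used; the annotation release is not given in the sources used here. Skin was digested with collagenase and debris was removed on Percoll. Cells were kept at 10% or less mitochondrial UMIs and 200 or more genes (the first limit left out 382, 445 and 675 of 6965, 10879 and 10507 barcodes). The 7 genes and all lists were chosen with earlier results of these data known.

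Clusters came from 2000 variable genes without the 7 genes and the pathway lists, 30 principal components and the Leiden method at resolution 0.8 (15 components for sub-clusters), with Python 3.11.15, numpy 2.4.6, scipy 1.17.1, pandas 2.3.3, scikit-learn 1.9.0, igraph 0.11.9 and leidenalg 0.10.2; plots used matplotlib 3.10.9. A marker counted when 25% of a cluster's cells had it and its CPM (plus 5) was 2 times that of other cells. A name needed 3 markers and 50% of a list, or at least 5 of 10 keratinocyte genes in 50% of cells; these thresholds were set after the clusters were seen. A cluster stayed unnamed when it met no list's rule, tied between lists or had a low UMI count. Some that met a list also stayed unnamed, with none of its markers among their leading genes. Doublets were scored against simulated doublets at 0.8% per 1000 barcodes and kept; their removal is an alternative.

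Intervals are exact: Poisson for sums, Clopper-Pearson for shares and conditional for ratios of CPM. No p-value was computed. Named genes are the 7 and, of each list, those with the largest or smallest ratio among genes with 20 UMIs. Others were named after their values were seen. The ratio step was checked on simulated independent Poisson counts. These do not hold the concentration of UMIs in few cells seen in the data, so the check does not cover it.

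Alternatives covered doublets, denominators, thinning to 1000 UMIs, cell-weighted means, resolutions 0.4 and 1.5, classes from marker UMIs, fold and UMI minimums. Gene coordinates are from the GENCODE annotation of GRCm38 and promoter windows from RefSeq, in which all 6 genes looked up had an entry; the *Tslp* window and 1 of the genes induced by IL-4 and IL-13 are not reported here.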

Additional observations from a re-analysis of the deposited data

How the results depend on the processing

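Of 299 alternative values for 49 results, 240 stayed within the counting interval of the reported value (for counts of genes, within 1.5 times) and 59 did not. Of the 257 values that are ratios, 17 crossed to the other side of 1, 6 where the reported ratio was beyond counting error (called reversed here) and 11 where it was within it. The cause was not tested. Alternatives without the cell with the most UMIs, without sub-clusters and weighted to AA or AA+Ab were added after seeing the data. No value could be given for *Il4* over all cells, AA+Ab to AA, thinned to 1000 UMIs. Ratios follow as AA to Neg and AA+Ab to AA.

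With classes from marker UMIs, T cell class ratios were 1.92 and 0.710 for *Il1rl1* (both reversed), 0.862 and 0.949 for *Gata3* (the second reversed), 2.66 and 0.568 for *Il5* and 2.38 for *Il13* (AA to Neg), these 3 crossing 1 from within counting error, and keratinocyte ratios were 0.883 for *Gata3* (AA to Neg) and 1.31 and 0.870 for *Il33*. That T cell class held 846, 998 and 1152 cells, of which 564, 523 and 714 were in keratinocyte-like clusters. Weighted to the Neg clusters, keratinocyte ratios were 0.829 and 0.940 for *Gata3*, 1.14 and 1.05 for *Il33* (the second reversed) and 0.939 for *Tslp* (AA to Neg, crossing 1, as did 0.977 with marker UMIs). Weighted to AA, they were 1.16 and 1.11 for *Il33* (the second reversed), and weighted to AA+Ab 0.824 and 0.941 for *Gata3*, 1.13 and 1.02 for *Il33* (the second reversed) and 0.934 (crossing 1) and 0.842 for *Tslp*.

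Over all cells, a denominator without mitochondrial, ribosomal and hemoglobin genes gave 0.825 and 0.937 for *Gata3* and 1.37 and 0.822 for *Il33*. The mean of per-cell CPM gave 0.619 and 1.68 for *Il1rl1*, 0.877 and 0.929 for *Gata3* and 1.26 and 0.837 for *Il33*. Thinning to 1000 UMIs gave 0.115 for *Il13* (AA+Ab to AA), 0.899 and 0.933 for *Gata3*, and 1.36 for *Il33* and 1.24 for *Tslp* (AA to Neg). Without doublets, *Il13* was at 0.172 (AA+Ab to AA) and *Gata3* at 0.837 (AA to Neg), with 0.833 in keratinocyte-like cells (AA to Neg) and 1.37 in the T cell-like cluster (AA+Ab to AA). There, *Gata3* without the keratinocyte-gene sub-clusters was at 0.606 and 1.39, and *Il13* without the top cell at 1.12 (AA to Neg, crossing 1). The remaining ratios that crossed 1 were *Il4* in that cluster without the top cell (1.79, AA+Ab to AA), *Il5* over all cells as the mean of per-cell CPM (1.14, AA+Ab to AA) and *Il1rl1* in the DC/Mac-like cluster without keratinocyte-gene and B cell-like sub-clusters (1.49, AA+Ab to AA) and without doublets (1.00, AA+Ab to AA). Over all cells, AA to Neg, *Il4* was at 3.32 as the mean of per-cell CPM and *Il5* at 2.13 thinned.

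With at least 2 cytokine UMIs, 0.167%, 0.211% and 0.132% of Neg, AA and AA+Ab cells remained. At 1.5-fold, 1 member (*Il4*, in place of 0) and 24 pathway genes (in place of 14) were higher in AA than in Neg, and 15 (in place of 8) were lower in AA+Ab than in AA. Among genes with at least 100 UMIs, 0 induced genes (in place of 1) and 1 pathway gene (in place of 3) were lower in AA than in Neg. From AA to AA+Ab, 1 member (in place of 2) was lower, and 0 induced genes (in place of 1) and 0 pathway genes (in place of 3) were higher. With 1 UMI in each library, 5 pathway genes were lower in AA than in Neg and 0 induced genes higher in AA+Ab than in AA. The shares of all genes under these other limits were not computed, so these counts have no background beside them. No paired analysis was possible because each group held 1 library. Depth limits *Il4* and *Il5* most, with 48 and 89 UMIs in all.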

Other observations

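The 80 cells of the T cell-like cluster with a UMI of *Il4*, *Il5* or *Il13* were compared with its other 673 cells, as a description with no test. Genes with a UMI in at least 25% of the 80 cells were ranked by their CPM ratio to the other cells. The genes named here are from the 10 with the largest ratios, so their higher levels in the 80 cells follow from that choice. *Areg*, the amphiregulin gene, was found in 30.0% of the former and 11.3% of the latter, *Csf2*, a growth factor of myeloid cells, in 35.0% and 7.43%, and *Il1rl1* in 48.8% and 15.3%. These 80 cells pool unlike cells. *Il1rl1* was found in 29 of the 36 cells with *Il5* and in 10 of the 41 with *Il13*, and *Areg* in 15 and 8. The cells with *Il4*, *Il5* and *Il13* were also deeper, with medians of 8035.5, 5438.5 and 6670 UMIs against 4242 over the whole cluster, and the levels per UMI differed by ratios of 4.51 for *Areg*, 3.25 for *Csf2* and 2.93 for *Il1rl1*, each taken as CPM plus 5. *Prxl2a*, *Ltb4r1*, *Tnfsf9* and *Plin2* were also among those 10 genes, as were *Il13* and *Il5* themselves.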
